A study of Mus musculus with 4 samples.

Results

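Polycomb repressive complex 2 (PRC2) was examined through 10 of its genes, Ezh2, Ezh1, Eed, Suz12, Rbbp4, Mtf2, Phf19, Phf1, Jarid2 and Aebp2, chosen by symbol from the 25965 genes listed in 4 RNA-seq libraries. All 10 were among the 13264 genes kept after low levels were filtered out. The libraries were made from embryonic stem cells (mESCs) of female mouse embryos, F1 between FVB/NJ dams and CAST/EiJ sires, in a study of factors that female mESCs need to inactivate one X chromosome as they differentiate. The day 0 library came from undifferentiated cells, labelled as a nonsilencing control. The other 3 came from day 6 of differentiation, after retroviral short hairpins were delivered on day 2 and puromycin selection began on day 3: a nonsilencing hairpin (Nons), or one of a pair, Smarca4.4 and Smarca4.6, aimed at Smarca4, which encodes an ATPase of the BAF nucleosome remodelling complex. The genotype field of the labels calls all the day 6 libraries, Nons included, a Smarcc knockdown, so groups follow the titles. Cells were expanded in 2i medium and differentiated without a directing factor by weaning them into serum medium, so day 6 also differed from day 0 in medium, transduction and selection, and these cannot be told apart. Each group was 1 library, and no difference has a replicate check. In bulk RNA, fewer cells of a type and less RNA per cell cannot be told apart.

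PRC2 methylates lysine 27 of histone H3, and the trimethylated mark accompanies stable silencing of developmental genes. EZH2 or its less active relative EZH1 carries the methyltransferase site, EED binds the existing mark and stimulates the enzyme, SUZ12 is the scaffold, and RBBP4 or RBBP7 binds histones. Accessory proteins divide the complex into PRC2.1, which holds a Polycomb-like protein (MTF2, PHF1 or PHF19), and PRC2.2, which holds JARID2 and AEBP2. In female cells PRC2 deposits its mark on the X chromosome that Xist RNA coats.

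The hairpins and the promoters of the members that differed most are shown first. The hairpins define the day 6 groups, and no comparison uses the promoter sequences. The hairpin guides, 22 bases each, were read from the study's oligonucleotide list and searched in GENCODE M21 transcripts. Both Smarca4 guides matched 1 gene, Smarca4, and the Nons guide matched 0 genes. The Smarca4.4 target lay in the 3′ untranslated region of exon 34 of 34 (mm10, chr9:21703327-21703348, plus strand), and the Smarca4.6 target in coding exon 22 (chr9:21670504-21670525, plus strand).

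Smarca4.4 target: actggagtcagacagtaataaa

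Smarca4.6 target: actgatgaacactattatgcaa

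Promoter windows were the 250 bases before each RefSeq start (GRCm38.p6, the assembly of mm10), and all 10 members matched, with 14 windows in all. They were searched on both strands for the E2F words TTTCCCGC, TTTCGCGC, TTTGCCGC and TTTGGCGC, since E2F factors drive many genes of proliferating cells. A word was found in 2 of the 14 windows, those of Suz12 and Phf19, and in 1.86% of all 32851 windows. Each word holds the pair CG. The Suz12 and Phf19 windows held 37 and 31 such pairs, against a median of 6 over all windows. The 1.86% is therefore not matched for CG content. A word is a description and not a binding site. The windows of the 3 members with the lowest differences between day 6 and day 0 are printed with that of Ezh1, in transcript direction, with the E2F word in capitals (in Phf19 the word lies on the other strand and reads GCGGGAAA). For Phf19 the 189 bases outside annotated exons are given, and for Mtf2 the first of its 2 windows.

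Suz12 promoter, chr11:79992856-79993105, plus strand: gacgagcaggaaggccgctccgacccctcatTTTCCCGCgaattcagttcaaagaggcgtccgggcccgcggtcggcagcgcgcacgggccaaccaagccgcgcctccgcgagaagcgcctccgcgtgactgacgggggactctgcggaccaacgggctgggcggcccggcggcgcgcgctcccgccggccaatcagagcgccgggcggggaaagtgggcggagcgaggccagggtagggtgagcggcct

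Phf19 promoter, chr2:34914027-34914215, minus strand: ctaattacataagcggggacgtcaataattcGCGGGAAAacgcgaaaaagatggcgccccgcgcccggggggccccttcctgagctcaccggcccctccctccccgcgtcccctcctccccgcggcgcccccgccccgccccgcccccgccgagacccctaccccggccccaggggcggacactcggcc

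Mtf2 promoter, chr5:108065424-108065673, plus strand: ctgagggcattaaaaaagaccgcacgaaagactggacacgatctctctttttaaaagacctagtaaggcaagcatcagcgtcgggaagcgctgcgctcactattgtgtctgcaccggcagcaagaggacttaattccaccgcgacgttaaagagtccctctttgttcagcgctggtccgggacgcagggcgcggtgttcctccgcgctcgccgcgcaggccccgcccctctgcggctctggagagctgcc

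Ezh1 promoter, chr11:101226464-101226713, minus strand: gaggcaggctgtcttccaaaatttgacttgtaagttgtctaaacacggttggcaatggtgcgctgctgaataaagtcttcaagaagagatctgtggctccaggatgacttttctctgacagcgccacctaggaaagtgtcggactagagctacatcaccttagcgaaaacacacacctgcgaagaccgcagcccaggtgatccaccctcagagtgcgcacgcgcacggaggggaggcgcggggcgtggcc

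Values are log2 CPM (reads of a gene, scaled to a common library total), and every interval is a 95% interval from read counts that covers counting error only. The libraries held 18599402 (day 0), 45759793 (Nons), 47143739 (Smarca4.4) and 36495575 (Smarca4.6) reads, and a level of 3 reads corresponded to between 0.0636 and 0.161 CPM. The targeted gene was examined first. Smarca4 was at 7.93 at day 0, 7.84 with Nons, 7.04 with Smarca4.4 and 7.44 with Smarca4.6. It was thus lowest with the 2 hairpins, at 57.3% and 75.8% of Nons for Smarca4.4 and Smarca4.6. The hairpins differed from each other by -0.40 (-0.45 to -0.35), so Smarca4.6 left more Smarca4 RNA. Of 8 naive pluripotency genes (Nanog, Esrrb, Klf2, Klf4, Zfp42, Tfcp2l1, Prdm14 and Tbx3), 8 were at least 2-fold lower in Nons than at day 0. The share over all genes kept was 12.3%.

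Most PRC2 genes had less RNA at day 6 than at day 0, and the genes differed unequally. Between day 0 and Nons day 6, 3 of the 10 members were at least 2-fold lower (Suz12, Mtf2 and Phf19), beside 12.3% of all genes kept, and 0 were at least 2-fold higher, beside 19.6% of all genes. The median difference of the members was -0.59, against 0.03 over all genes kept. Rbbp4 stayed close to its day 0 level, Ezh1 was higher, and the interval of Phf1 included 0. The plot of levels by library shows the day 0 point standing above the day 6 points for 7 members.

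**Figure D1:**
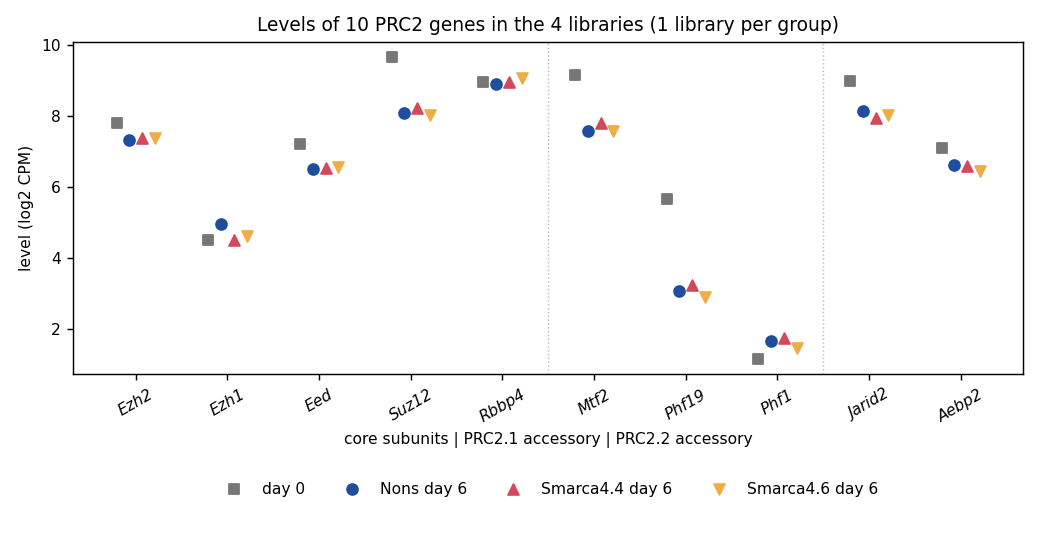
Levels of the 10 PRC2 genes in log2 CPM (vertical axis), with 1 point per library and 1 library per group. Day 0 lies above all 3 day 6 libraries for Ezh2, Eed, Suz12, Mtf2, Phf19, Jarid2 and Aebp2, and below or among them for Ezh1, Rbbp4 and Phf1.

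The methyltransferase genes differed in opposite directions. Ezh2 (chr6:47530274-47595341) was at 7.81 at day 0, 7.31 with Nons, 7.37 with Smarca4.4 and 7.39 with Smarca4.6. The 3 day 6 libraries lay together below day 0, and Nons differed from day 0 by -0.50 (-0.55 to -0.44), which left 70.8% of the day 0 level. Ezh1 (chr11:101191115-101226463) was at 4.49 at day 0, 4.95 with Nons, 4.51 with Smarca4.4 and 4.61 with Smarca4.6. Nons stood above the other libraries, by 0.45 (0.30 to 0.61) over day 0. Neither difference reached 2-fold.

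With the Smarca4 hairpins Ezh2 lay near its level in Nons and Ezh1 lay below it. Ezh2 differed from Nons by 0.06 (0.01 to 0.10) with Smarca4.4 and 0.07 (0.02 to 0.12) with Smarca4.6. Ezh1 differed from Nons by -0.43 (-0.55 to -0.32) with Smarca4.4, on 1077 reads against 1412, a value below which 5.32% of genes kept lay. With Smarca4.6 Ezh1 differed by -0.34 (-0.46 to -0.22), on 889 reads, with 10.9% of genes below it. Ezh1 was the 1 member at least 1.2-fold lower with Smarca4.4, beside 13.1% of all genes, and again the 1 member with Smarca4.6, beside 15.2%. The share of members at that fold was therefore no higher than the background in either comparison. No member, 0 of 10, was at least 1.2-fold higher with Smarca4.4 or with Smarca4.6, beside 17.5% and 24.3% of all genes. The 2 comparisons share the Nons library, so an unusual Nons value would appear in both. The hairpins themselves differed little in Ezh1, by -0.09 (-0.22 to 0.04), an interval that includes 0.

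The balance of Ezh1 to Ezh2 was taken per kb of annotated exon, the scale on which levels of different genes can be compared. Ezh1 made up 8.25% of the Ezh1 plus Ezh2 sum at day 0, 14.8% with Nons, 11.0% with Smarca4.4 and 11.5% with Smarca4.6. Ezh2 thus exceeded Ezh1 in every library, by 11.1-fold at day 0 and 5.75-fold in Nons. The log2 ratio of Ezh1 to Ezh2 was 0.95 (0.79 to 1.12) higher in Nons than at day 0. Against Nons it differed by -0.49 (-0.61 to -0.37) with Smarca4.4 and by -0.41 (-0.54 to -0.28) with Smarca4.6, so both hairpin libraries lay between day 0 and Nons. The 2 hairpins differed in it by -0.08 (-0.21 to 0.06), an interval that includes 0.

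**Figure D2:**
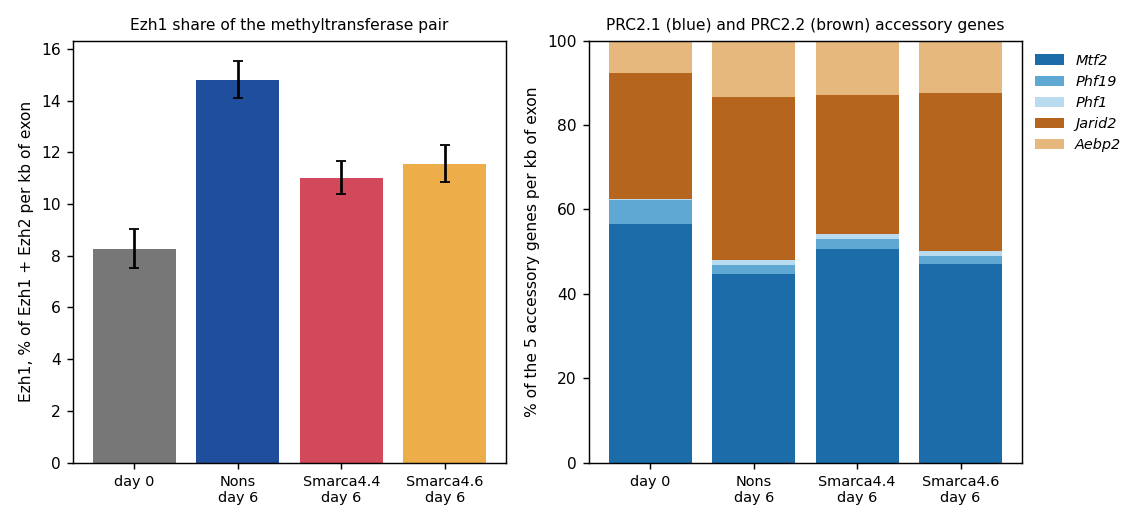
Left, Ezh1 as a percent of Ezh1 plus Ezh2 (CPM per kb of exon) in each library, with 95% counting intervals; right, the share of each accessory gene in the sum of the 5, stacked per library. The Ezh1 share is 8.25% at day 0, 14.8% in Nons and 11.0% and 11.5% with the hairpins, and Mtf2 and Jarid2 together make up most of every stack.

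Of the core subunits, Suz12 differed most between day 0 and Nons, Eed less, and Rbbp4 hardly. Suz12 (chr11:79993106-80034123) was at 9.67 at day 0, 8.07 with Nons, 8.22 with Smarca4.4 and 8.04 with Smarca4.6. It stood far above the other libraries at day 0, with 813 CPM against 270 CPM in Nons, a difference of -1.59 (-1.63 to -1.56) or 3.02-fold. Per kb of exon, Suz12 exceeded 98.2% of the 11972 kept genes with a known exon length at day 0 and 93.7% in Nons, so it remained an abundant transcript. Eed (chr7:89954656-89980983) was at 7.21, 6.52, 6.55 and 6.57 in day 0, Nons, Smarca4.4 and Smarca4.6. Day 0 was again highest, and the Nons difference was -0.69 (-0.76 to -0.62). Rbbp4 (chr4:129307100-129335370), a histone chaperone that also serves in other chromatin complexes, was at 8.97, 8.92, 8.96 and 9.07 in the same order. It was highest in Smarca4.6, and Nons differed from day 0 by only -0.06 (-0.09 to -0.02).

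The core subunits differed little with the hairpins. Eed differed from Nons by 0.02 (-0.04 to 0.09) with Smarca4.4 and 0.05 (-0.02 to 0.11) with Smarca4.6, with both intervals including 0. Suz12 was 0.15 (0.11 to 0.18) above Nons with Smarca4.4 and at -0.04 (-0.08 to -2.9e-05) against Nons with Smarca4.6. Rbbp4 was 0.05 (0.02 to 0.07) and 0.16 (0.13 to 0.18) above Nons with Smarca4.4 and Smarca4.6. None of these differences reached 1.2-fold, and the median over all genes kept was 0.04 for Smarca4.4 and 0.06 for Smarca4.6.

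**Figure D3:**
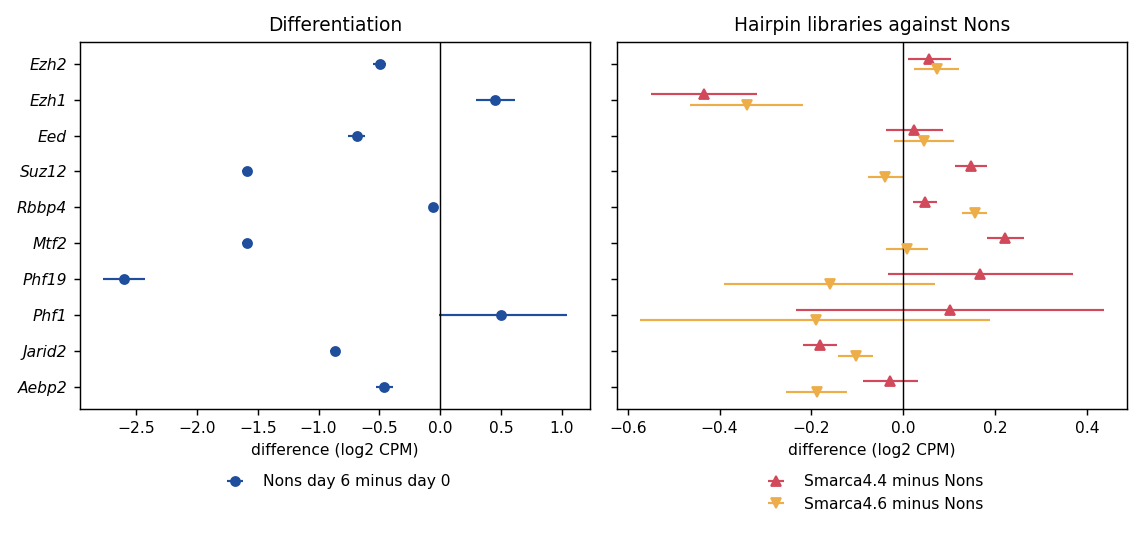
Differences in log2 CPM (horizontal axis) for the 10 PRC2 genes, with 95% counting intervals as bars: left, Nons day 6 minus day 0; right, Smarca4.4 and Smarca4.6 minus Nons, on an expanded axis. Phf19, Suz12 and Mtf2 lie farthest left in the first panel (-2.60, -1.59 and -1.59), and in the second Ezh1 lies farthest left with both hairpins (-0.43 and -0.34).

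The Polycomb-like genes of PRC2.1 differed unequally between day 0 and Nons. Mtf2 (chr5:108065674-108109004), which helps PRC2 bind unmethylated CpG-rich DNA, was at 9.17 at day 0, 7.57 with Nons, 7.80 with Smarca4.4 and 7.58 with Smarca4.6. Day 0 was highest, and Nons differed from it by -1.59 (-1.63 to -1.55), or 3.01-fold. The ratio of Mtf2 to Suz12 therefore differed between Nons and day 0 by 0.001 (-0.052 to 0.054). Phf19 (chr2:34893757-34914026) was at 5.66 at day 0, 3.06 with Nons, 3.23 with Smarca4.4 and 2.90 with Smarca4.6. It had the largest difference of the 10 members, -2.60 (-2.77 to -2.43) or 6.06-fold, on 938 reads at day 0 and 381 in the deeper Nons library. Phf1 (chr17:26933127-26937890) was the least abundant member, at 1.14, 1.64, 1.74 and 1.45 in day 0, Nons, Smarca4.4 and Smarca4.6, on 41, 143, 158 and 100 reads. Its day 0 level was lowest, but the Nons difference of 0.50 had an interval of -0.01 to 1.04 that includes 0.

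With the hairpins, Mtf2 stood 0.22 (0.18 to 0.26) above Nons with Smarca4.4, while Smarca4.6 differed by 0.01 (-0.04 to 0.05). Phf19 was at 0.17 (-0.03 to 0.37) and -0.16 (-0.39 to 0.07) against Nons with Smarca4.4 and Smarca4.6, with both intervals including 0. Phf1 was at 0.10 (-0.23 to 0.44) and -0.19 (-0.57 to 0.19). Between the hairpins themselves 2 members were at least 1.2-fold higher with Smarca4.4 than with Smarca4.6, Phf19 by 0.33 (0.11 to 0.55) and Phf1 by 0.29 (-0.08 to 0.67), beside 11.5% of all genes. Both are the least abundant members, and the Phf1 interval includes 0. In the other direction 0 members were at least 1.2-fold lower, beside 13.4% of all genes.

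The PRC2.2 genes were lower at day 6 but less so than Mtf2. Jarid2 (chr13:44729474-44921643), whose protein recruits PRC2 and binds ubiquitinated histone H2A, was at 9.0 at day 0, 8.13 with Nons, 7.95 with Smarca4.4 and 8.03 with Smarca4.6. Day 0 was highest and Smarca4.4 lowest. The difference of Nons from day 0 was -0.87 (-0.91 to -0.83), and Jarid2 differed from Nons by -0.18 (-0.22 to -0.14) with Smarca4.4 and -0.10 (-0.14 to -0.07) with Smarca4.6. Aebp2 (chr6:140622449-140678472), a zinc finger partner of Jarid2, was at 7.09, 6.63, 6.60 and 6.44 in day 0, Nons, Smarca4.4 and Smarca4.6. Nons was -0.46 (-0.53 to -0.39) from day 0, and Smarca4.6 was lowest, at -0.19 (-0.25 to -0.12) against Nons, while Smarca4.4 was at -0.03 (-0.09 to 0.03).

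The proportions of the accessory genes differed between day 0 and day 6. Per kb of exon, Mtf2 made up 56.6% of the sum of the 5 accessory genes at day 0, 44.6% with Nons, 50.5% with Smarca4.4 and 46.9% with Smarca4.6. Jarid2 made up 29.6%, 38.6%, 33.0% and 37.6% in the same libraries. Phf19 supplied 5.62% at day 0 and 2.2% in Nons, and Phf1 at most 1.25% in any library. The PRC2.1 genes together made up 62.6% of the sum at day 0 (62.0% to 63.2%), 48.0% in Nons (47.4% to 48.6%), 54.2% in Smarca4.4 (53.6% to 54.8%) and 50.1% in Smarca4.6 (49.4% to 50.8%). The log2 ratio of PRC2.1 to PRC2.2 genes was 0.36 higher in Smarca4.4 than in Nons and 0.12 higher in Smarca4.6. Jarid2 and Mtf2 differed in opposite directions with Smarca4.4, so that the log2 ratio of Mtf2 to Jarid2 was 0.40 (0.35 to 0.46) above Nons there, and 0.11 (0.05 to 0.17) with Smarca4.6.

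**Figure D4:**
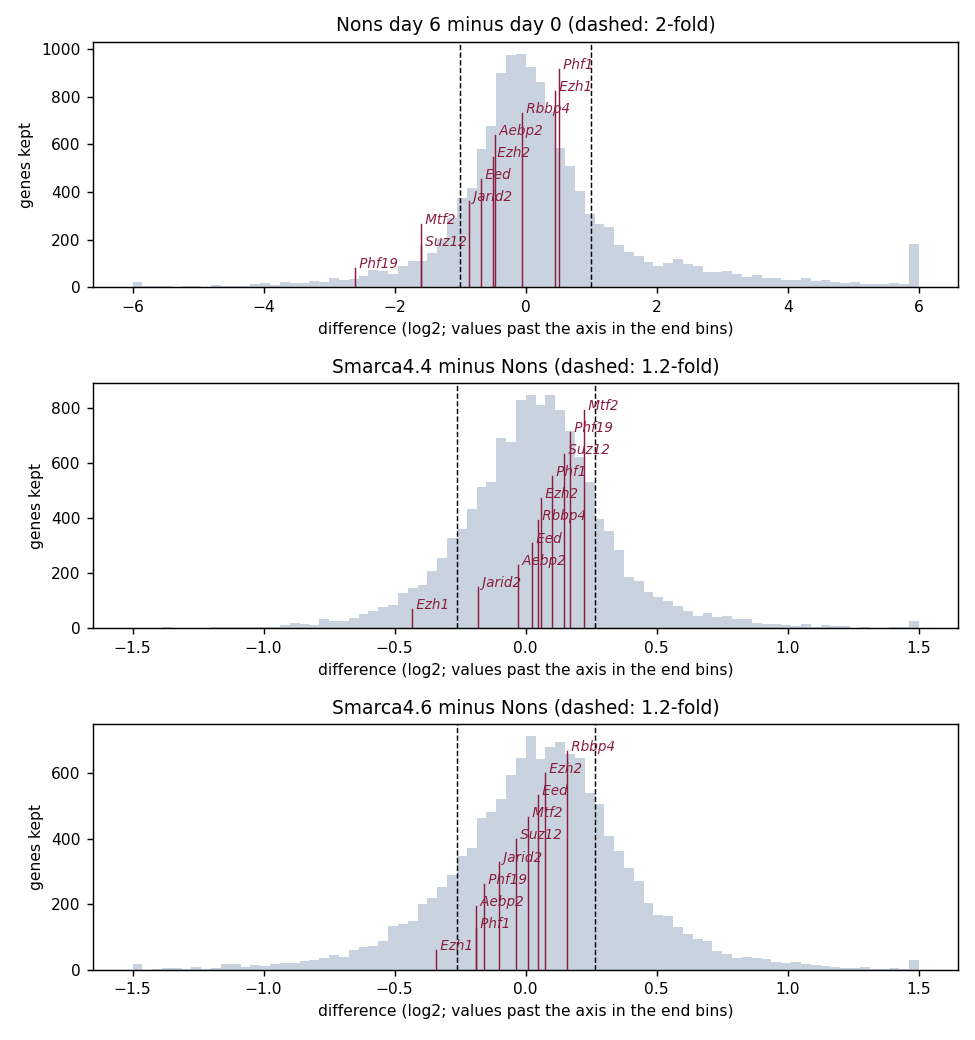
Histograms of the differences of all 13264 genes kept (horizontal axis, log2; vertical axis, number of genes) with each PRC2 gene marked by a line whose height only separates the names, and dashed lines at the fold used for counts. In the top panel 3 members lie left of the 2-fold line; in the lower panels Ezh1 alone lies left of the 1.2-fold line.

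Some members share exon sequence with genes on the opposite strand, and whether the counting used strand was not given in the sources used here. Phf1 shares 39.3% of its exon bases with Cuta, which was at 4.27, 3.68, 3.38 and 3.83 in day 0, Nons, Smarca4.4 and Smarca4.6, above Phf1 in every library. The Phf1 values are uncertain for that reason. The shared portion was 9.10% or less of the exons for any other member and gene.

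Other PRC2 partners were measured in a list of 7 genes (Rbbp7, Epop, Ezhip, Lcor, Lcorl, Elob and Eloc), all kept. Against day 0, 2 of the 7 were at least 2-fold lower in Nons and 0 higher (12.3% and 19.6% of all genes kept), with a median of -0.24 against 0.03 over all genes kept. Epop, a PRC2.1 partner abundant in mESCs, was at 7.83 at day 0, 5.50 with Nons, 5.81 with Smarca4.4 and 5.78 with Smarca4.6. Ezhip, an inhibitor of the EZH2 active site, was at 3.94, 2.21, 2.90 and 2.04 in the same libraries. Day 0 was highest for both. With Smarca4.4, 4 of the 7 were at least 1.2-fold above Nons (Rbbp7, Epop, Ezhip and Lcor), beside 17.5% of all genes. Ezhip and Rbbp7 are X-linked, and the 17.5% is over genes of all chromosomes. The part of X linkage in this count was not tested. With Smarca4.6, 1 of the 7 was above Nons at that fold (Epop, at 0.28), beside 24.3%. Rbbp7, the X-linked alternative to Rbbp4, was at 9.44, 8.51, 8.96 and 8.70. Its log2 ratio to Rbbp4, whose level hardly varied, changed by -0.88 (-0.93 to -0.83) between day 0 and Nons and was 0.40 (0.37 to 0.44) above Nons with Smarca4.4. With Smarca4.6 that ratio differed from Nons by 0.04, with an interval that includes 0 (-0.01 to 0.08).

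Genes that act against PRC2 or compete with it were taken as a list of 13: the H3K27 demethylases Kdm6a and Kdm6b, the H3K27 acetyltransferases Crebbp and Ep300, and methyltransferases of H3K36 and H3K4. Of these, 2 were at least 2-fold lower in Nons than at day 0 and 0 higher, beside 12.3% and 19.6% of all genes, with a median of -0.30. Kmt2c, an H3K4 methyltransferase of enhancers, differed by -1.53. Kdm6b was at 5.91 at day 0 and 4.91 in Nons. With Smarca4.4, 2 of 13 were at least 1.2-fold above Nons, beside 17.5% of all genes: the H3K36 methyltransferases Nsd2 (0.39) and Setd2 (0.35). With Smarca4.6, 2 of 13 were, Crebbp (0.31) and Setd2 (0.29), beside 24.3%, and 0 were lower with either hairpin. Neither count was a larger share than that of all genes.

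Of 20 genes that PRC2 is known to mark in mESCs, 9 were kept and 11 had a mean log2 CPM below 0. Among the 9, 5 were at least 2-fold higher in Nons than at day 0 (Gata4, Hand1, Eomes, Msx1 and Wt1) and 2 lower (T and Cdkn2a), beside 19.6% and 12.3% of all genes. A gene at a few reads at day 0 could be kept only through its day 6 level, so these counts describe the kept genes and not the 20. Wt1 had 1 read at day 0 and a log2 CPM of 4.15 in Nons, and Eomes was at 2.93 at day 0 and 5.08 in Nons. With Smarca4.4, 4 of the 9 were at least 1.2-fold above Nons and 2 below (17.5% and 13.1% of all genes), and with Smarca4.6, 5 above and 2 below (24.3% and 15.2%). Hand1 was at 2.68 with Nons, 4.28 with Smarca4.4 and 3.45 with Smarca4.6, and Pax6 at 2.88, 3.5 and 3.48. T was at -1.35, -1.97 and 1.32, on 18, 12 and 91 reads. With Smarca4.6 it lay above Nons. With Smarca4.4 it was counted as below, but that difference of -0.63 had an interval of -1.81 to 0.51 that includes 0. Some genes failed the filter on their mean alone. Sox1 had 15, 9, 140 and 30 reads in day 0, Nons, Smarca4.4 and Smarca4.6, and Gata6 66, 28, 50 and 13. Sox1 differed from Nons by 3.92 (2.95 to 5.08) with Smarca4.4 and 2.06 (0.95 to 3.32) with Smarca4.6. Gata6 differed by 0.79 (0.10 to 1.52) and -0.78 (-1.85 to 0.22).

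Markers of cell type and proliferation differed in the same comparisons. The summed level of the 8 naive genes was 3506 CPM at day 0 and between 105 and 127 CPM in the day 6 libraries. A list of 8 mesenchymal genes (Tagln, Acta2, Cnn1, Myl9, Col1a1, Col1a2, Thy1 and Vim) summed to 118 CPM at day 0, with 2 of the 8 at 0 reads (Acta2 and Myl9), and to 1233 CPM with Nons, 991 CPM with Smarca4.4 and 895 CPM with Smarca4.6. Tagln supplied most of that sum, with 852, 637 and 538 CPM in the 3 day 6 libraries. Vim went the other way, with 91.4, 129 and 152 CPM, and Myl9 hardly differed, with 55.5, 54.5 and 53.1 CPM. With Smarca4.4, 4 of the 8 were at least 1.2-fold below Nons and 1 above, beside 13.1% and 17.5% of all genes. With Smarca4.6, 3 were below and 1 above, beside 15.2% and 24.3%. A list of 6 extraembryonic genes (Elf5, Cdx2, Gata6, Sox17, Sox7 and Dab2), of which 2 were kept (Sox17 and Dab2), summed to between 10.3 and 31.0 CPM in the 4 libraries. Dab2 supplied most of the day 6 sums, with 22.1 CPM in Nons against 1.83 CPM at day 0. Sox17 and Elf5 were also higher in Nons than at day 0, and Gata6, Cdx2 and Sox7 were lower. The Sox17 difference of 0.16 had an interval of -0.50 to 0.85 that includes 0. Elf5 had only 20 reads in Nons and 4 at day 0, and Gata6, Cdx2 and Sox7 had 28, 10 and 17 in Nons and 66, 26 and 34 at day 0. Of 18 proliferation genes, 6 were at least 2-fold lower in Nons than at day 0 (Mcm3, Mcm4, Mcm6, Rrm2, E2f1 and E2f2) and 0 higher, beside 12.3% and 19.6% of all genes. At any size of difference, 14 of the 18 were lower and 4 higher. The 4 were Bub1 (0.30), Aurkb (0.21), Cdk1 (0.18) and Ccnb1 (0.04, with an interval that includes 0). Mki67 hardly differed (-0.08). E2f1 was at 6.20 at day 0, 4.42 with Nons, 4.54 with Smarca4.4 and 4.46 with Smarca4.6. With the hairpins, 4 of 18 (Smarca4.4) and 8 of 18 (Smarca4.6) were at least 1.2-fold above Nons and 0 below, beside 17.5% and 24.3% of all genes above. The part of these markers in the PRC2 values was not tested.

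The genes whose profile over the 4 libraries lay nearest to each methyltransferase were found by Euclidean distance between centred log2 CPM values, among 9599 genes. For Ezh2 these were Smcr7l (0.022), Sumf1 (0.029) and Mrps15 (0.032). For Ezh1 they were Gm11808 (0.034), Mtss1 (0.044) and 1500012F01Rik (0.049). Mtss1 was at 5.71 at day 0, 6.18 with Nons, 5.75 with Smarca4.4 and 5.88 with Smarca4.6, the same order of libraries as Ezh1. With 4 libraries the likeness is a description only.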

How the data were processed

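RNA-seq was performed on 4 libraries, with 1 library per group and groups taken from the titles. The authors trimmed paired-end reads, aligned them to mm10 with FVB and CAST variants masked (tophat or HISAT2 per the methods, HISAT2 per the submitters' processing notes), and counted reads over genes in SeqMonk. The deposited values are log2 CPM. They combine both alleles. The strand setting was not given in the sources used here. Antilogs were whole multiples of 1 read within 0.1 reads for at least 99.989% of values, which gave reads and totals. A read pair may have counted as 2 reads, and in that case the counting intervals are too narrow.

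Genes with a mean log2 CPM of at least 0 were kept. Counts used a 2-fold difference between days and 1.2-fold within day 6, with no p-values. Single-gene intervals were exact (Clopper-Pearson), and ratio intervals used the delta method on Poisson counts. Exon lengths came from GENCODE M21. Python 3.11.15, pandas 2.3.3, scipy 1.17.1, matplotlib 3.10.9 and numpy 2.4.6 were used, and scripts were tested on simulated data. The members and lists were chosen with earlier results of these data known. Named genes were the members, Smarca4, list genes that passed a fold or define their list, and the 3 genes nearest in profile to Ezh2 and Ezh1. Alternatives were another scaling, centring, a pseudocount, 2 filters, gene length and left-out members. The differences compare libraries, not conditions.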

Additional observations from a re-analysis of the deposited data

Results flagged for a closer look

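Suz12 lay above Nons with Smarca4.4 and below it with Smarca4.6, and the hairpin libraries differed by 0.19 on the log2 scale (0.15 to 0.22), less than 1.2-fold. Phf19 lay on opposite sides of Nons in the same way, with the hairpin libraries 0.33 apart (0.11 to 0.55). Both were noted because the 2 hairpins lay on opposite sides of Nons with an interval of their difference that leaves out 0. With 1 library per hairpin the difference was not tested against replicate spread. Against Nons, the Phf19 interval includes 0 with each hairpin. The Suz12 interval against Nons with Smarca4.6 only just leaves out 0 (-0.08 to -2.9e-05).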

How the results depend on the processing

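No paired analysis was possible because the groups have a single library each. Of 112 recomputed summary values, 93 stayed within counting error, or within 1.5 times for a count, 18 moved and 1 changed sign. For a median of members, the limits were the medians of the members' lower and upper bounds, which are not a counting interval of the median. Part of the 93 could not have moved and is no check. Scaling and centring cancel in a ratio within a library, and gene length cancels in the change of Ezh1 to Ezh2. Removing the filter left the members as they were. Of 120 recomputed member differences, 92 stayed, 17 moved and 11 changed sign. The number of members at least 2-fold lower at day 6 was 3 under all 5 alternatives, and Ezh1 stayed at least 1.2-fold lower with both hairpins under the 3 that rescale or add a pseudocount. The cause of the moves was not tested. With median-of-ratios scaling, Eed was at -0.0103 against Nons for Smarca4.4, and Eed, Ezh2 and Mtf2 at -0.0284, -0.000526 and -0.0653 for Smarca4.6. The hairpins then differed by 0.0230 for Ezh2 and 0.0181 for Eed. With centring on the autosomal median, Eed was at -0.00793 for Smarca4.4, Eed and Mtf2 at -0.0162 and -0.0532 for Smarca4.6, and the hairpins differed by 0.0175 for Ezh2 and 0.0126 for Eed. The median member against Nons for Smarca4.6 was -0.14 with that scaling and -0.13 with centring, and the scaling gave 2 members at least 1.2-fold lower. Keeping means of at least 3 put the median of day 6 against day 0 at -0.69 and between hairpins at -0.0159; leaving out Rbbp4 put them at -0.69 and 0.16. Members at least 1.2-fold higher in Smarca4.4 than Smarca4.6 numbered 1 on the log2(CPM + 1) scale and 1 at the filter of 3. Without Aebp2 the accessory log2 ratio changed by -0.76 at day 6, and the hairpins differed in it by 0.30. With the longest transcript as length, the Ezh1 to Ezh2 log2 ratio was -3.91 (day 0), -2.96 (Nons), -3.45 (Smarca4.4) and -3.38 (Smarca4.6), and the accessory log2 ratio 0.88, -0.00611, 0.34 and 0.12 in that order. Depth limits Phf1, on 41 to 158 reads.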
